A study of Homo sapiens with 12 samples.

Results

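The transcripts described here are the 5 mRNAs that the study chose as internally m7G-modified, namely CYRIB, HUWE1, BPNT2, NDRG1 and ZDHHC9. They were taken by gene symbol from the 58721 genes counted in each library, and all 5 were found. The libraries came from HepG2, a human hepatoblastoma-derived line, in which IGF2BP3 had been knocked down transiently by siRNA (siIGF2BP3) or which carried the control siRNA (siControl). All cells received 100 µg/mL cycloheximide for 4 min at 2 days after transfection. For each condition, transcript abundance was read from Input libraries and ribosome occupancy from libraries of ribosome-protected fragments (RPF) of 28 to 30 nt, so that there were 4 groups of 3 libraries. The genotype label of the siControl cells is control knockdown, and a single siRNA treatment, with no rescue, stands for the loss of IGF2BP3.

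N7-methylguanosine (m7G) is best known as the cap of mRNA, but it also occurs at guanosines inside mRNA, where the METTL1 and WDR4 methyltransferase can place it. IGF2BP3 belongs to the IGF2BP family of RNA-binding proteins, which bind mRNA and alter its stability and translation. Ribosome profiling adds the footprints of ribosomes on each transcript to its abundance, and the ratio of RPF to Input is called translational efficiency (TE). The study fused a catalytically inactive Cas13b to IGF2BP3 or METTL1. It tethered IGF2BP3 at methylated loci of selected transcripts, compared with unmethylated ones, and METTL1 at loci with relatively low methylation. For each of these 5 transcripts it lists a target region and a further region marked negative, and only the target region is described here. HUWE1 was the only member with its target region inside the coding sequence. The sequence of this region follows with those of the primers that the study used for m7G immunoprecipitation and PCR (MeRIP-qPCR) of HUWE1 and ZDHHC9, the other X-linked member. Capitals mark G in the sense sequences, and C in the reverse primers, which lies opposite a G of the transcript. Whether any of these guanosines carries the methyl group is not given in the sources used here.
HUWE1 target region: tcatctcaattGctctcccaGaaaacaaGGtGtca
HUWE1 MeRIP-qPCR forward primer: tGccttGttccGtacctcac
HUWE1 MeRIP-qPCR reverse primer: CCaCaatgCgtCCgaCaaaC
ZDHHC9 MeRIP-qPCR forward primer: tGacacctaaGccccactct
ZDHHC9 MeRIP-qPCR reverse primer: atgCCgCtggCatCtCataa

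The 35-nt HUWE1 target lies at chrX:53547899-53547933 (hg38, minus strand) and begins in codon 3459 of the canonical transcript. It holds 5 G, and its GC content is 42.9%. The HUWE1 primers lie at chrX:53536552-53536571 and chrX:53536462-53536481 and frame a coding amplicon of 110 nt, 1823 nt downstream of the target. Both ZDHHC9 primers, at chrX:129805743-129805762 and chrX:129805618-129805637, lie in the 3′ UTR and frame 145 nt, which contain the 36-nt ZDHHC9 target at chrX:129805690-129805725. That target begins 645 nt after the stop codon and holds 8 G at a GC content of 27.8%.

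**Figure D1:**
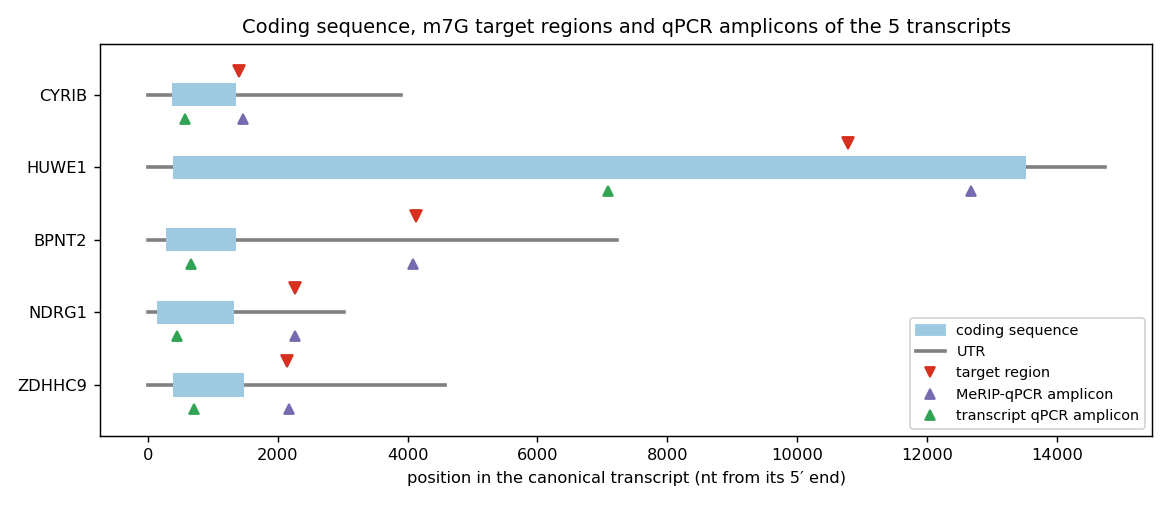
Canonical transcripts of the 5 genes (GENCODE 44), with position in nt from the 5′ end on the x axis. Bars are coding sequence, lines are UTRs, and triangles are the midpoints of the target regions and of the MeRIP-qPCR and transcript qPCR amplicons. The target lies in the 3′ UTR of 4 transcripts and in the coding sequence of HUWE1, and all 5 transcript amplicons are coding.

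The members are built very differently. HUWE1 (ENSG00000086758, chrX:53532096-53686729) encodes a HECT-type ubiquitin ligase of 4374 residues, and its canonical mRNA of 14731 nt in 84 exons is 89.1% coding. ZDHHC9 (ENSG00000188706, chrX:129803288-129843909) encodes a palmitoyltransferase of 364 residues that works with GOLGA7 on RAS proteins, and 67.4% of its 4571-nt mRNA is 3′ UTR. The other members lie on chromosome 8. CYRIB (ENSG00000153310, chr8:129839593-130017129) encodes a RAC1-binding protein of 324 residues that restrains the WAVE actin-regulating complex, and its mRNA of 3904 nt is 65.3% 3′ UTR. BPNT2 (ENSG00000104331, chr8:56957933-56993844) encodes a Golgi phosphatase of 359 residues that removes the nucleotide left over from sulfation, and its mRNA of 7224 nt is 81.1% 3′ UTR. NDRG1 (ENSG00000104419, chr8:133237171-133302022) encodes a stress-responsive protein of 394 residues that is induced by hypoxia, and its mRNA of 3025 nt is 56.3% 3′ UTR.

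All 5 genes are on the minus strand, and the 4 targets outside HUWE1 are in the 3′ UTR. The CYRIB target of 32 nt begins 28 nt after the stop codon, close behind the last translated codon. In BPNT2 the target of 32 nt begins 2748 nt after the stop codon, the farthest of the 4, and holds 3 G. The NDRG1 target of 31 nt begins 927 nt after the stop codon and is the richest in G, with 19 G and a GC content of 74.2%. The MeRIP-qPCR amplicon contains the target in CYRIB, NDRG1 and ZDHHC9, overlaps it in part in BPNT2 and misses it in HUWE1.

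Every member was counted in every library. The libraries held 11219750 to 14797573 counts (Input) and 13036423 to 31510601 counts (RPF), and a member had between 492 and 8932 counts in a library. All 5 passed the filter on low counts in every comparison. siControl RPF replicates 2 and 3 differed by less than the sampling noise (mean chi-square per gene 0.941) and were counted as 1 sample in means and SDs, which leaves n = 2 there. For ZDHHC9, BPNT2 and CYRIB these replicates lay on either side of replicate 1, so the SD is smaller than the spread of the single libraries. The main tests of RPF, TE and the baseline kept them as separate libraries, so their SEs, intervals and p-values count this pair as independent. Summing the pair lowered the calls over all genes in RPF from 336 to 14. siIGF2BP3 RPF replicate 1, the shallowest RPF library, stood apart from replicates 2 and 3 of its group (mean chi-square 19.8 and 21.5, against 1.15 between those 2), so member results that rest on it are given with and without it. Without it, the siIGF2BP3 RPF group is a pair that differed by little more than sampling noise. The small p-values of that setting therefore measure a spread that may be technical. For the gene lists, calls that changed when a library was left out are given. The labels do not say that the replicates were separate cultures, so p-values measure the spread between these libraries, which may be technical.

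The knockdown was visible in both assays, but less in the transcript than in the footprints of IGF2BP3. Expressed as CPM (counts scaled to the same library total), the IGF2BP3 transcript read 133, 129 and 127 in the siControl libraries against 103, 97.9 and 105 in the siIGF2BP3 libraries, and the log2 fold change was -0.39 ± 0.05 (SE, edgeR adjusted p = 1.06e-05). In bulk RNA of a cell line, fewer cells that express a gene and less RNA per cell cannot be told apart. The footprints of IGF2BP3 read 74.6, 78.1 and 77.7 CPM under siControl against 21.9, 28.0 and 25.2 CPM under siIGF2BP3, with a log2 fold change of -1.59 ± 0.08 (SE, edgeR adjusted p = 0.000301). Its TE change was -1.19 (edgeR interaction term, adjusted p = 4.65e-07). The hepatocyte markers ALB, AFP, APOA1, APOB, TTR, SERPINA1, FGB and HNF4A were above 94 CPM in all 12 libraries, with ALB at 8278 CPM or more. In RNA 4 of these 8 were called lower after knockdown, beside 1.9% of all genes tested. They were APOA1 (log2 fold change -0.29, edgeR adjusted p = 8.81e-05), SERPINA1 (-0.26, 0.00171), AFP (-0.23, 0.00219) and ALB (-0.19, 0.0128). In RPF and TE, where 1.66% and 2.17% of all genes were called, none of the 8 markers was. Their summed level was 51304 to 52109 CPM in siControl Input and 47372 to 47734 CPM in siIGF2BP3 Input, and the part of this shift in the members' values was not tested. Of the markers of other cell types, DCN (fibroblast) was at 0 in every library and the 3 fibroblast markers together reached at most 0.652 CPM. The 3 endothelial markers together were at 2.06 to 6.49 CPM, most of it PECAM1 in the RPF libraries (up to 4.97 CPM). Of the leukocyte markers, PTPRC reached at most 0.0234 CPM and CD14 5.60 CPM, whereas LYZ was at 1901 to 3804 CPM and was called lower in RNA (-0.15, edgeR adjusted p = 0.0406).

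NDRG1 was the most abundant member, and its transcript was the only one of the 5 called changed after IGF2BP3 knockdown. In siControl Input it was at 535, 604 and 567 CPM (568 ± 34.5, SD, n = 3), and in siIGF2BP3 Input at 633, 680 and 663 CPM (659 ± 23.6, SD, n = 3). All 3 siIGF2BP3 libraries lay above all 3 siControl libraries, as was the case for 19.2% of all genes tested. The log2 fold change of 0.16 ± 0.05 (SE, 95% interval 0.06 to 0.26) had an adjusted p of 0.0422 (edgeR). That 1 of 5 members was called compares with 5.96% of the 14759 genes tested, or 4.05% called higher. No member lay below the siControl range in all 3 siIGF2BP3 libraries, as 5.73% of all genes did. The adjusted p lay close to the threshold and ranged from 0.0138 to 0.186 over 13 alternatives, 7 of which lost the call, and the value was 0.11 to 0.21 when each Input library was left out in turn. The call was lost without siControl Input replicate 1 or 3 and without siIGF2BP3 Input replicate 2 or 3.

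For the footprints of NDRG1 the fold change had the opposite sign. They were at 181, 190 and 192 CPM in siControl RPF (186 ± 7.06, SD, n = 2) and at 181, 155 and 155 CPM in siIGF2BP3 RPF (164 ± 14.9, SD, n = 3), with the highest siIGF2BP3 library next to the lowest siControl library. The log2 fold change was -0.18 ± 0.08 (SE, 95% interval -0.38 to 0.01) and was not called (edgeR adjusted p = 0.348). Nor was it called in 13 of 15 alternatives, among them siControl RPF replicates 2 and 3 summed (-0.16, edgeR adjusted p = 0.668). Without siIGF2BP3 RPF replicate 1 it was -0.28 and was called (edgeR adjusted p = 0.000508), a setting that called 16.5% of all genes in RPF. By CPM the groups did not overlap, as for 14.8% of all genes in this direction, but after TMM scaling replicate 1 fell inside the siControl range.

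RPF/Input of NDRG1, taken between libraries of the same number, was 0.339, 0.315 and 0.338 in siControl and 0.286, 0.228 and 0.234 in siIGF2BP3. All 3 siIGF2BP3 ratios were below all 3 siControl ratios, as for 16.7% of all genes tested for TE. The TE change was -0.34 ± 0.09 on the log2 scale (SE, 95% interval -0.54 to -0.15), the largest of the 5 members, with an adjusted p of 0.0623 (edgeR interaction term). It was called without siIGF2BP3 RPF replicate 1 (-0.43, edgeR adjusted p = 6.28e-05, beside 10.0% of all genes), by DESeq2 (-0.34, adjusted p = 0.0166) and with TMM factors over all 12 libraries (-0.36, adjusted p = 0.0384), and it was negative in all 23 alternatives. It was not called in 19 of the 23. Among these were siControl RPF replicates 2 and 3 summed (-0.33, edgeR adjusted p = 0.146), the offset for gene length (-0.28, 0.158) and a block per culture (-0.35, 0.0983). The labels do not say whether Input and RPF libraries of the same number came from the same lysate.

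For BPNT2 the transcript levels of the groups overlapped and the footprint levels did not. The Input values were 212, 221 and 207 CPM in siControl (213 ± 7.32, SD, n = 3) and 226, 220 and 219 CPM in siIGF2BP3 (222 ± 3.58, SD, n = 3), and the groups overlapped. The log2 fold change in RNA was 0.01 ± 0.05 (SE, 95% interval -0.09 to 0.10, edgeR adjusted p = 0.963). Its footprints were at 61.5, 62.3 and 58.9 CPM in siControl (61.0 ± 0.643, SD, n = 2) and at 69.5, 69.2 and 70.1 CPM in siIGF2BP3 (69.6 ± 0.427, SD, n = 3). All 3 siIGF2BP3 libraries, replicate 1 included, lay above all siControl libraries, as for 10.9% of genes. The log2 fold change was 0.21 ± 0.05 (SE, 95% interval 0.10 to 0.32, edgeR adjusted p = 0.0848), which missed the threshold. It was not called in 13 of 15 alternatives, among them siControl RPF replicates 2 and 3 summed (0.22, edgeR adjusted p = 0.268). Without siIGF2BP3 RPF replicate 1 the value was 0.19 and was called (edgeR adjusted p = 0.00371), a setting under which the calls over all genes rose from 336 to 3410.

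RPF/Input of BPNT2 was 0.290, 0.281 and 0.284 in siControl and 0.308, 0.315 and 0.319 in siIGF2BP3, without overlap, as for 5.11% of genes in this direction. The TE change was 0.21 ± 0.07 (SE, 95% interval 0.07 to 0.35, edgeR adjusted p = 0.121) and was not called. It was called without siIGF2BP3 RPF replicate 1 (0.19, edgeR adjusted p = 0.0319) and by DESeq2 (0.22, adjusted p = 0.0364). With that library left out and siControl RPF replicates 2 and 3 summed, it was 0.19 and not called (edgeR adjusted p = 0.0546). Summing those replicates alone gave 0.20 (edgeR adjusted p = 0.224), and 21 of 23 alternatives gave no call.

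For ZDHHC9, too, the groups overlapped in transcript and not in footprints. Its Input was at 83.9, 77.7 and 76.5 CPM in siControl (79.4 ± 3.97, SD, n = 3) and at 78.5, 83.2 and 83.5 CPM in siIGF2BP3 (81.7 ± 2.78, SD, n = 3), with a log2 fold change of -0.00 ± 0.05 (SE, 95% interval -0.12 to 0.11, edgeR adjusted p = 0.978). RPF values were 70.7, 68.5 and 73.8 CPM in siControl (70.9 ± 0.279, SD, n = 2) and 62.5, 65.2 and 66.9 CPM in siIGF2BP3 (64.9 ± 2.23, SD, n = 3). The siControl SD is small because the averaged replicates 2 and 3 lay on either side of replicate 1. Every siIGF2BP3 footprint library was below every siControl library, as for 14.8% of all genes, and the log2 fold change of -0.11 ± 0.05 (SE, 95% interval -0.23 to 0.00) was not called (edgeR adjusted p = 0.312). RPF/Input was 0.843, 0.881 and 0.965 in siControl and 0.796, 0.784 and 0.802 in siIGF2BP3. The TE change was -0.10 ± 0.08 (SE, 95% interval -0.26 to 0.06, edgeR adjusted p = 0.553). By CPM all 3 siIGF2BP3 ratios were below all siControl ratios, as for 16.7% of genes, but after TMM scaling 1 of them fell into the siControl range.

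HUWE1 and CYRIB overlapped between conditions in every readout. HUWE1 Input was at 231, 205 and 216 CPM in siControl (217 ± 12.9, SD, n = 3) and at 215, 217 and 220 CPM in siIGF2BP3 (217 ± 2.49, SD, n = 3), with a log2 fold change of -0.05 ± 0.05 (SE, 95% interval -0.14 to 0.05, edgeR adjusted p = 0.640). Its footprints were at 235, 249 and 249 CPM in siControl (242 ± 10.2, SD, n = 2) and at 206, 261 and 259 CPM in siIGF2BP3 (242 ± 30.9, SD, n = 3). siIGF2BP3 RPF replicate 1 was the lowest of the 6 and the other two were the highest, so the group mean hides a split. The log2 fold change was 0.00 ± 0.08 (SE, 95% interval -0.18 to 0.18, edgeR adjusted p = 0.998), and 0.09 without replicate 1 (edgeR adjusted p = 0.123). HUWE1 RPF/Input was 1.02, 1.21 and 1.16 in siControl and 0.961, 1.20 and 1.18 in siIGF2BP3, and the TE change was 0.06 ± 0.09 (SE, 95% interval -0.14 to 0.25, edgeR adjusted p = 0.821).

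CYRIB was the least abundant member. Its Input was at 46.5, 45.1 and 48.2 CPM in siControl (46.6 ± 1.59, SD, n = 3) and at 49.9, 46.4 and 44.3 CPM in siIGF2BP3 (46.9 ± 2.84, SD, n = 3), with a log2 fold change of -0.04 ± 0.07 (SE, 95% interval -0.17 to 0.10, edgeR adjusted p = 0.795). The RPF values were 39.0, 39.3 and 36.4 CPM in siControl (38.4 ± 0.835, SD, n = 2) and 37.7, 38.2 and 41.3 CPM in siIGF2BP3 (39.1 ± 1.97, SD, n = 3), with a log2 fold change of 0.05 ± 0.06 (SE, 95% interval -0.08 to 0.18, edgeR adjusted p = 0.752). RPF/Input was 0.839, 0.871 and 0.755 in siControl and 0.755, 0.823 and 0.933 in siIGF2BP3, so that the lowest ratios of both conditions coincided. The TE change was 0.09 ± 0.09 (SE, 95% interval -0.10 to 0.28, edgeR adjusted p = 0.685).

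**Figure D2:**
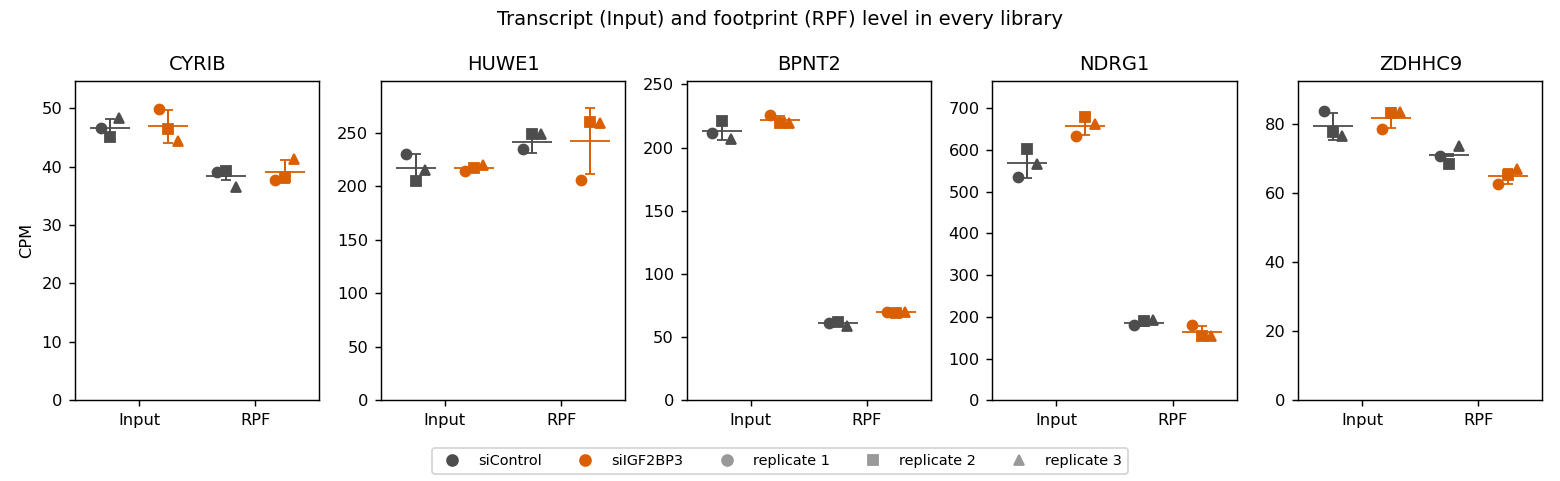
CPM of each member (y axis, linear from 0) in Input and RPF libraries of siControl (grey) and siIGF2BP3 (orange); symbols are replicates, bars are mean ± SD with siControl RPF replicates 2 and 3 as 1 sample. NDRG1 Input and BPNT2 RPF separate upward, NDRG1 RPF and ZDHHC9 RPF separate downward (NDRG1 RPF overlaps after TMM scaling), while HUWE1 and CYRIB overlap.

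**Figure D3:**
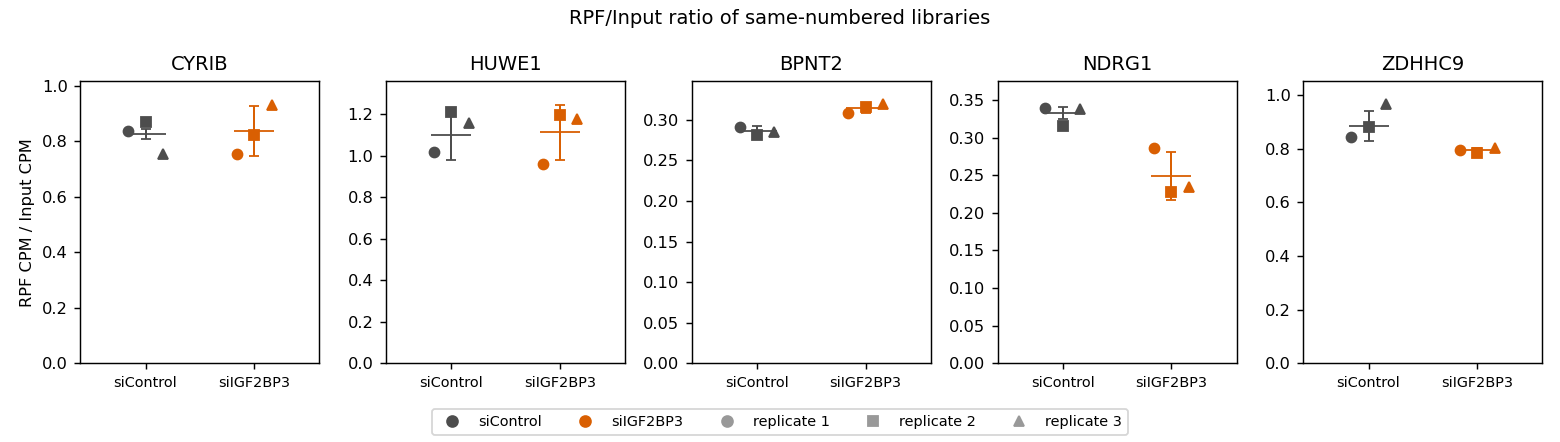
RPF CPM over Input CPM of same-numbered libraries (y axis, linear from 0) for each member, with mean ± SD. The siIGF2BP3 ratios of NDRG1 (0.228 to 0.286) lie below those of siControl (0.315 to 0.339), and those of BPNT2 lie above.

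Counted over the 5 members, edgeR called 1 in RNA, 0 in RPF and 0 in TE, against a background of 5.96% in RNA, 1.66% of 20192 genes in RPF and 2.17% of 13395 genes in TE. At an unadjusted p under 0.05, 1 member passed in RPF (BPNT2) and 2 passed in TE (NDRG1 and BPNT2). DESeq2 called 2 in TE and 0 in RPF, beside 4.33% of the 9482 genes to which it gave an adjusted p in TE and 3.63% of 17720 in RPF. The median log2 change of the members was -0.00 for RNA, 0.00 for RPF and 0.06 for TE, beside medians over all genes of 0.00, 0.01 and 0.01. The directions were mixed, with a TE above 0 for 3 members (BPNT2, CYRIB and HUWE1) and below 0 for NDRG1 and ZDHHC9. The RNA, RPF and TE comparisons use the same libraries, so they are not independent views of a member.

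**Figure D4:**
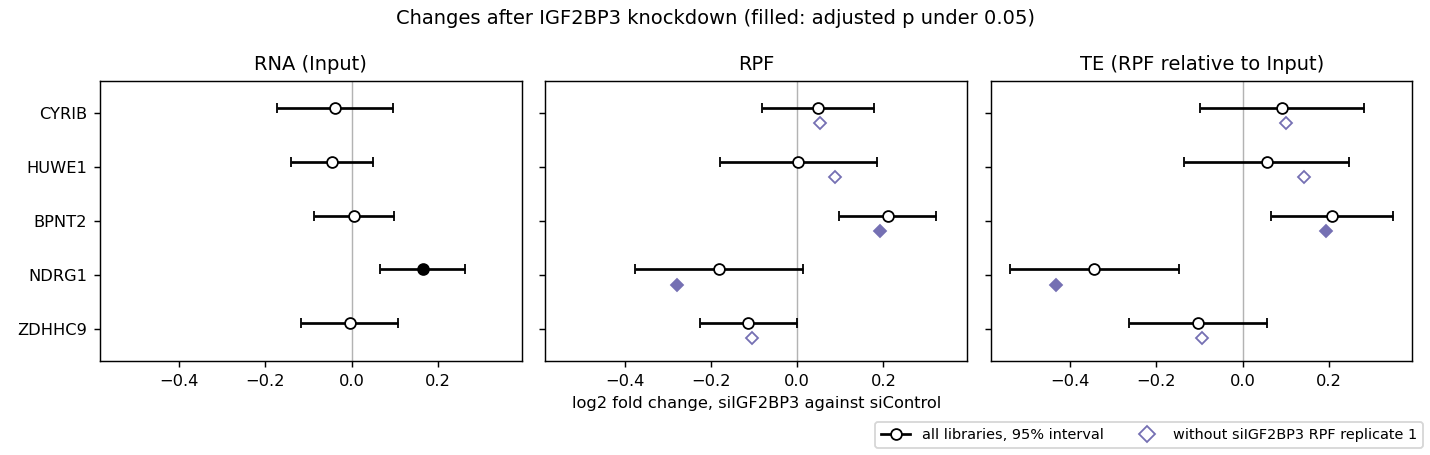
log2 fold change of siIGF2BP3 against siControl (x axis) in RNA, RPF and TE for each member, with 95% intervals (circles), and the RPF and TE values without siIGF2BP3 RPF replicate 1 (diamonds). Filled symbols have an adjusted p under 0.05, namely NDRG1 in RNA, and NDRG1 and BPNT2 in RPF and TE once that replicate is left out.

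Levels were compared between genes per kilobase. The exon length used for Input is the gene length of the count files, which can far exceed the canonical mRNA. It was 9823 bp for NDRG1 (mRNA of 3025 nt) and 9132 bp for CYRIB (3904 nt), so the distances between members depend on this choice. In siControl Input, per kb of exon, the order was NDRG1 (57.9 CPM per kb), BPNT2 (28.1), ZDHHC9 (15.1), HUWE1 (12.5) and CYRIB (5.10), and the replicate ranges of no neighbours overlapped. The footprint order, per kb of coding sequence, was NDRG1 (157 CPM per kb), ZDHHC9 (64.8), BPNT2 (56.5), CYRIB (39.4) and HUWE1 (18.4), again without overlap between neighbours. After knockdown the Input order stayed, whereas in RPF BPNT2 (64.5 CPM per kb) stood above ZDHHC9 (59.3 CPM per kb). NDRG1 led in both assays, and HUWE1 was the least densely covered in RPF although its footprint count was the highest of the 5.

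Members with a long 3′ UTR did not all have few footprints per transcript. The baseline log2 RPF over Input in siControl was -1.65 ± 0.04 (SE) for BPNT2, -1.44 ± 0.04 for NDRG1, -0.12 ± 0.05 for CYRIB, -0.00 ± 0.04 for ZDHHC9 and 0.33 ± 0.04 for HUWE1. These values are relative to the typical gene, and BPNT2 and NDRG1 stood at the 12.9 and 16 percentiles of all 12858 genes tested. edgeR called 4 of the 5 (all but ZDHHC9), beside 89.9% of all genes. The CYRIB call (edgeR adjusted p = 0.0254) was lost without siControl Input replicate 3 or siControl RPF replicate 3 (-0.11 and -0.09), on summing replicates 2 and 3 of siControl RPF (-0.09, edgeR adjusted p = 0.135) and with upper-quartile factors (-0.10, edgeR adjusted p = 0.0712).

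Ribosomes translate only the coding part, so the coding share of each mRNA was set beside these ratios. The coding share was 15.0% for BPNT2, 24.0% for ZDHHC9, 25.0% for CYRIB, 39.2% for NDRG1 and 89.1% for HUWE1, against a median of 49.0% over 9332 protein-coding genes with at least 5 CPM in each assay. ZDHHC9 and CYRIB thus had RPF/Input near the middle of these genes (48.2 and 44.5 percentiles) at low coding shares (16.2 and 17.6 percentiles). Expressed per kb of coding sequence over Input per kb of transcript, the log2 ratio was 1.90 for ZDHHC9, 1.72 for CYRIB, 0.93 for BPNT2, 0.34 for HUWE1 and -0.25 for NDRG1, beside a median of 1.09. NDRG1 was the lowest member on this scale (16.8 percentile) and HUWE1 the next (28.6 percentile). Across the 9332 genes, Spearman's rho between coding share and log2 RPF/Input was 0.214, given as a description since genes are not independent and both measures share the same libraries.

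**Figure D5:**
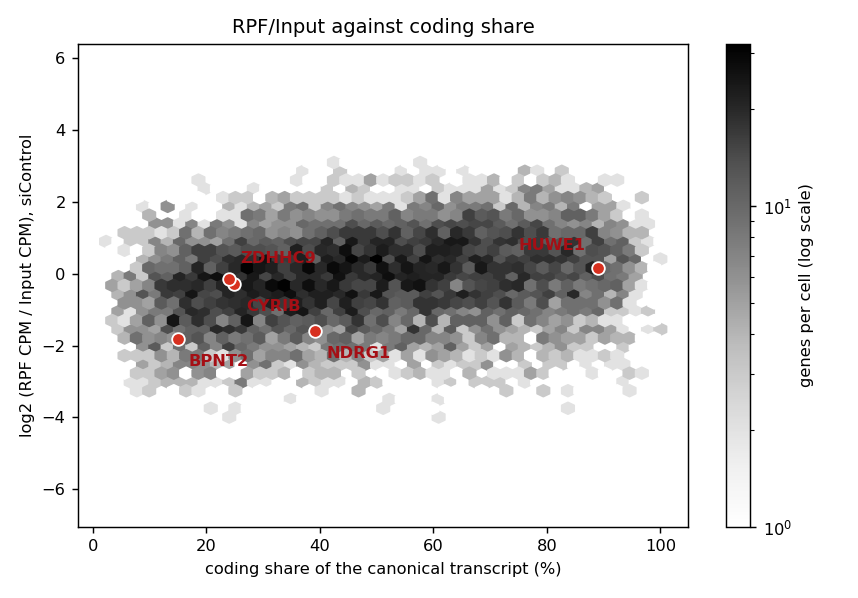
Coding share of the canonical transcript (x axis, percent) against log2 RPF CPM over Input CPM in siControl (y axis) for 9332 protein-coding genes (grey cells, darker for more genes on a log scale) and the 5 members (red). BPNT2 lies low at a coding share of 15.0% and NDRG1 low at 39.2%, whereas ZDHHC9 and CYRIB lie near the middle.

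For each member, 3 genes were named whose log2 CPM, centred within each assay, correlated best with it over the 12 libraries, out of 9767 genes. They were CENPS, CENPS-CORT and RNF2 for CYRIB (Pearson r of 0.931, 0.899 and 0.867), and the first 2 share reads because CENPS-CORT reads through CENPS. RPSA, PTRH2 and RFX7 were nearest to HUWE1 (r of 0.966, 0.963 and 0.963, or 0.898, 0.895 and 0.881 without siIGF2BP3 RPF replicate 1). BPNT2 was nearest to GDPD3, OCRL and SSU72 (0.961, 0.941 and 0.928), NDRG1 to ULK1, TRIM27 and SMAD3 (0.963, 0.955 and 0.954), and ZDHHC9 to NMT1, ZNF609 and ENTPD7 (0.935, 0.930 and 0.915). Among the members themselves the strongest value was -0.661, between BPNT2 and ZDHHC9, and the highest was 0.474, between ZDHHC9 and HUWE1. Without siIGF2BP3 RPF replicate 1 these were -0.578 and 0.03, and the highest was 0.532, between NDRG1 and ZDHHC9. These are descriptions, and the libraries of a group share its condition.

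The genes that work with each member were described from lists chosen by function. For CYRIB, 13 of 15 genes of RAC1 and the WAVE and ARP2/3 machinery were tested. ACTR3, an ARP2/3 subunit, fell in RNA by 0.16 on the log2 scale (edgeR adjusted p = 0.0391), and WASF1, a WAVE subunit, rose in RPF by 0.38 (edgeR adjusted p = 0.0378), from 13.7, 14.0 and 14.5 to 17.9, 17.3 and 19.1 CPM. None of the 13 was called in TE, beside 2.17% of all genes, and the list medians were 0.02 in RNA and 0.06 in RPF. With an RPF library left out, 0 to 5 were called in RPF, beside 11 to 3410 of all genes. In TE it was 0 to 1, beside 126 to 1350. Both upper values over all genes (16.5% and 10.0%) came without siIGF2BP3 RPF replicate 1. ACTR3 lost its call without siControl Input replicate 2 or 3 or siIGF2BP3 Input replicate 2 or 3 (-0.16 to -0.13), and WASF1 without any of the siControl RPF replicates or siIGF2BP3 RPF replicate 2 or 3 (0.35 to 0.43). Summing replicates 2 and 3 of siControl RPF also lost the WASF1 call (edgeR adjusted p = 0.169).

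Of the HECT ligases, the family of HUWE1, 24 were tested in RNA and none was called lower, beside 1.9% of all genes tested. HERC2 rose in RNA from 59.8, 50.3 and 53.1 to 70.9, 61.7 and 64.2 CPM (log2 fold change 0.22 ± 0.07, SE, edgeR adjusted p = 0.0468). NEDD4 rose in footprints from 20.1, 19.4 and 20.0 to 26.4, 29.6 and 30.3 CPM (log2 fold change 0.56 ± 0.06, SE, edgeR adjusted p = 0.00767) and in TE (0.44 ± 0.10, SE, edgeR adjusted p = 0.0255). The median of the list was 0.11 (RNA), -0.07 (RPF) and -0.15 (TE) (HUWE1 itself was at -0.05, 0.00 and 0.06). With a library left out, 0 to 9 of the list were called in RPF, beside 11 to 3410 of all genes. In TE it was 0 to 6, beside 126 to 1350. Both upper values over all genes (16.5% and 10.0%) came without siIGF2BP3 RPF replicate 1. NEDD4 lost its RPF call with siControl RPF replicates 2 and 3 summed (edgeR adjusted p = 0.0719), and without any of the siControl RPF replicates or siIGF2BP3 RPF replicate 2 (0.55 to 0.56). Its TE call held without siControl Input replicate 2 or 3 or siIGF2BP3 RPF replicate 1 but was lost without any of the other 9 libraries (0.37 to 0.45), with those replicates summed (edgeR adjusted p = 0.0683), with a block per culture (0.0886) and with no filter (0.0584). HERC2 lost its call under 8 of 13 alternatives, among them DESeq2 (adjusted p = 0.0784), and without siControl Input replicate 2 or 3 or siIGF2BP3 Input replicate 1 or 3 (0.16 to 0.24).

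For BPNT2, 17 of 20 genes of PAPS synthesis, transport and sulfotransfer were tested. CHST15, a chondroitin sulfotransferase, rose in RNA from 161, 169 and 169 to 196, 197 and 200 CPM (log2 fold change 0.20 ± 0.05, SE, edgeR adjusted p = 0.00790), and SULT2A1, a hydroxysteroid sulfotransferase, fell by 0.17 (edgeR adjusted p = 0.0246). None was called in RPF or in TE, beside 1.66% and 2.17% of all genes, and the list median in TE was 0.01. With an RPF library left out, 0 to 4 were called in RPF, beside 11 to 3410 of all genes. The 3410 (16.5%) came without siIGF2BP3 RPF replicate 1. SULT2A1 lost its call without siControl Input replicate 3 or siIGF2BP3 Input replicate 2 or 3 (-0.17 to -0.15). The offset for gene length also lost the SULT2A1 call (-0.13, edgeR adjusted p = 0.0837), while CHST15 kept its call in all 13 alternatives.

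Of the 24 NDRG family and hypoxia-induced genes chosen for NDRG1, 2 rose and 1 fell in RNA, beside 4.05% and 1.9% of all genes. VEGFA, the angiogenic growth factor, rose from 787, 1025 and 929 to 1174, 1172 and 1151 CPM (log2 fold change 0.30 ± 0.07, SE, edgeR adjusted p = 0.0188), and PFKFB4, a regulator of glycolysis, rose by 0.27 (edgeR adjusted p = 0.0121). NDRG3, the paralogue of NDRG1, fell by 0.23 on the log2 scale (edgeR adjusted p = 0.0313). In TE PFKFB4 fell by 0.44 (edgeR adjusted p = 0.0289), while VEGFA was at -0.42 ± 0.15 (SE, edgeR adjusted p = 0.193). HIF1A, the hypoxia factor itself, was not called in any comparison (0.04 in RNA and 0.02 in RPF). The list had 0 genes called in RPF (11 at an unadjusted p under 0.05), beside 1.66% of all genes. Without siIGF2BP3 RPF replicate 1, 14 of the 24 had an adjusted p under 0.05 (edgeR), beside 16.5% of all genes. In TE 0 to 5 were called with a library left out, beside 126 to 1350 of all genes. The 1350 (10.0%) came without siIGF2BP3 RPF replicate 1. VEGFA lost its RNA call by DESeq2 (adjusted p = 0.0729) and without siControl Input replicate 3 or siIGF2BP3 Input replicate 1 or 3 (0.29 to 0.32). The offset for gene length also lost the VEGFA call (0.26, edgeR adjusted p = 0.139). PFKFB4 lost its RNA call without siControl Input replicate 1 (0.18) or siIGF2BP3 Input replicate 3 (0.26), and NDRG3 without any siControl Input replicate or siIGF2BP3 Input replicate 1 or 2 (-0.26 to -0.19). The TE call of PFKFB4 was lost without siControl Input replicate 1 or 3, any of the siControl RPF replicates, siIGF2BP3 Input replicate 2 or 3 or siIGF2BP3 RPF replicate 2 (-0.47 to -0.34), and on summing replicates 2 and 3 of siControl RPF (edgeR adjusted p = 0.0778).

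For ZDHHC9, 22 of 27 palmitoyltransferases and partners were tested. ZDHHC21, another palmitoyltransferase, rose in RNA from 26.9, 27.9 and 24.4 to 35.9, 32.8 and 34.6 CPM (log2 fold change 0.33 ± 0.08, SE, edgeR adjusted p = 0.00879) and in RPF by 0.59 (edgeR adjusted p = 0.0312). GOLGA7, the partner of ZDHHC9, was at -0.08 in RNA and 0.07 in RPF, and HRAS and NRAS, its substrates, were not called. With a library left out, 0 to 3 of the list were called in RPF, beside 11 to 3410 of all genes. In TE it was also 0 to 3, beside 126 to 1350. Both upper values over all genes (16.5% and 10.0%) came without siIGF2BP3 RPF replicate 1. The ZDHHC21 footprint call was lost with siControl RPF replicates 2 and 3 summed (edgeR adjusted p = 0.152), and without any of the siControl RPF replicates or siIGF2BP3 RPF replicate 2 or 3 (0.51 to 0.61), and its RNA call without siControl Input replicate 3 (0.28). DESeq2 gave ZDHHC21 no adjusted p in RNA.

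A list of writers and readers of m7G, exosome subunits and the nuclease XRN2, which leaves out IGF2BP3 itself, held 10 tested genes. None was called in RNA, RPF or TE (0, 1 and 0 genes at an unadjusted p under 0.05), beside 5.96%, 1.66% and 2.17% of all genes. With an RPF library left out, 0 to 2 of the list were called in RPF (0 to 3 over all 15 alternatives), beside 11 to 3410 of all genes. The 3410 (16.5%) came without siIGF2BP3 RPF replicate 1. METTL1, the methyltransferase, was at -0.15 ± 0.17 in RNA (SE), and QKI, another internal m7G reader, at -0.23 ± 0.05 in RPF (SE, edgeR adjusted p = 0.0749).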

How the data were processed

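Per the labels and the study's methods, reads were trimmed with Cutadapt, aligned to hg38 with STAR and counted per gene with featureCounts; versions and options are not given in the sources used here, nor is the making of the Input libraries. The authors deposited unscaled estimated counts for each gene, some of them fractional (at most 0.102% of a member's count). They were rounded to whole numbers. Names came from GENCODE 44 (58207 of 58721 identifiers, 99.1%).

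edgeR 4.0.16 (R 4.3.3) compared siIGF2BP3 with siControl in the 6 Input libraries (RNA), the 6 RPF libraries (RPF) and, as the interaction of assay and knockdown, in all 12 (TE), and RPF with Input in the 6 siControl libraries. Genes passed filterByExpr (in both assays for TE and the baseline), factors were TMM (within assay for TE), and robust quasi-likelihood tests were adjusted over all genes by Benjamini-Hochberg at 0.05. CPM values were computed on library totals without TMM factors. The tests were also run on simulated counts with the same dispersion in every gene and library. Those counts held no near-duplicate pair and no outlying library, so that run cannot show how the tests behave with these features. CYRIB overlaps 7 genes and HUWE1 2, all under 1 CPM on average, and BPNT2 has a processed pseudogene.

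The members and lists were chosen with earlier results of these data known. Named genes are the members, IGF2BP3, up to 4 called genes per list and comparison by smallest p, and the 3 nearest genes of each member; others were named after their values were seen. Alternatives were DESeq2 1.42.0, upper-quartile and RLE factors, a filter at 5 CPM on average or none, a replicate block, an offset for gene length (loess span 0.3), TMM over all libraries and a block per culture for TE, siControl RPF replicates 2 and 3 summed, and each library left out. Leaving out siIGF2BP3 RPF replicate 1 with that sum was added after seeing the data. Coding lengths are those of GENCODE canonical transcripts, in place of the planned RefSeq proteins. Some genes and the counts that rest on them are not reported here.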

Additional observations from a re-analysis of the deposited data

How the results depend on the processing

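The members called in RNA (1) fell to 0 with RLE factors, upper-quartile factors and the offset for gene length, and ranged from 0 to 1 when each library was left out. In RPF (0) they ranged from 0 to 2 without a library, and were 2 with siIGF2BP3 RPF replicate 1 left out and siControl RPF replicates 2 and 3 summed. In TE (0) they were 2 by DESeq2, 1 with TMM factors over all 12 libraries, 0 to 2 without a library and 1 with that library left out and those replicates summed. The baseline count (4) stayed between 3 and 4. Values near 0 changed sign. BPNT2 in RNA was -0.0048 by DESeq2, -0.0006 with RLE and -0.0049 with upper-quartile factors, -0.0029 with no filter, -0.0116 with the length offset and -0.0138 to 0.0338 without a library. CYRIB in RNA ranged from -0.089 to 0.0023 without a library. ZDHHC9 in RNA was 0.0061 at a mean of at least 5 CPM and -0.0277 to 0.0263 without a library. HUWE1 in RPF was -0.0041 by DESeq2, -0.0122 with upper-quartile factors, -0.0029 with no filter, -0.0027 with the replicate block and -0.043 to 0.0878 without a library. ZDHHC9 at baseline was 0.0222 with upper-quartile factors, 0.0286 with the replicates summed and -0.0365 to 0.0297 without a library. The cause of these changes was not tested. The calls over all genes moved by more than 1.5 times in RPF (644 by DESeq2, 14 with the replicates summed, 11 to 3410 without a library, 3025 with the added setting, against 336), in TE (178 with no filter, 143 summed, 121 with the culture block, 126 to 1350 without a library, 1088 with the added setting, against 291), in RNA (444 to 907 without a library, against 879) and at baseline (21498 by DESeq2 and 24426 with no filter, against 11558). Correlations of same-numbered deviations lay between -0.113 and 0.097. With 3 libraries per group, a near-duplicate pair and an outlying library, they cannot decide whether the label numbers pair the libraries. The replicate block changed no call of a member but lost those of WASF1 in RPF and NEDD4 in TE (NDRG1 in RNA 0.17, adjusted p = 0.0173, edgeR). Counting per gene cannot place footprints within a transcript, so none of these values bears on the target regions themselves. The planned coding length from RefSeq proteins was not run.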
